A study of Mus musculus with 6 samples.

Results

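The HOX genes are homeobox transcription factors, and all symbols HOXA, HOXB, HOXC or HOXD followed only by a number of 1 to 13 were taken from a gene count table of mouse lung squamous cell carcinoma. There were 39 such genes among the 46937 symbols of the table, 11 in cluster A, 10 in cluster B, 9 in cluster C and 9 in cluster D. Members were chosen by symbol, and the family was selected on its CPM values and log2 fold changes in the comparison of PSCN with PSC, so every difference between the groups below is a description and carries no test. The tumours of 3 libraries, called PSCN, combined constitutively active PI3K (Pik3ca H1047R), SOX2 overexpression, deletion of Cdkn2a/b and expression of the NSD3 mutant T1242A. The tumours of the 3 control libraries, called PSC, carried the same PI3K, SOX2 and Cdkn2a/b alterations with NSD3 given as wild type. RNA came from bulk biopsies. The labels give no age, no driver of the transgenes and no statement that the biopsies were from separate mice. Spread between libraries may therefore be technical in part. In bulk RNA, a change in the share of a cell type and a change in RNA per cell cannot be told apart.

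HOX genes lie in clusters in which gene order follows the body axis: genes of low position are used towards the head and genes of high position towards the tail and in the tips of limbs. Polycomb complexes keep unused HOX genes silent and trithorax proteins such as KMT2A keep used ones active, so that a cell's HOX pattern records where in the embryo it came from. The embryonic lung uses genes of low and middle position, above all HOXA5, HOXB4 and HOXB5, mostly in its mesenchyme. NSD3 is a histone methyltransferase that acts on lysine 36 of histone H3, a mark that hinders Polycomb methylation.

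The starts of the genes that the results turn on are shown first. HOXA10, HOXA13 and HOXD8 set the groups apart, while HOXA5, the HOX gene with the highest mean level per length, did not. Each window is the 250 bases before a RefSeq transcription start in GRCm38.p6, read 5′ to 3′ on the gene's strand. Capitals mark matches, on either strand, to the TATA box TATAAA, the CCAAT box CCAAT, the GC box GGGCGG, the PBX-HOX site TGATTNAT or the retinoic acid receptor site AGGTCA. HOXA10 has 2 annotated starts, and the counts do not say which one was used.
HOXA5, chr6:52204588-52204837, minus strand: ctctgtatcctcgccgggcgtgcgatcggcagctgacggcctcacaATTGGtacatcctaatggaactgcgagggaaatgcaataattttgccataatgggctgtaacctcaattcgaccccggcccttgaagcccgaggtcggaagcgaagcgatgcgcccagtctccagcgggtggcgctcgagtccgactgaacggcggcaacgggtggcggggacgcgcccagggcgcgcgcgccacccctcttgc
HOXA10, start at 52234939, chr6:52234940-52235189, minus strand: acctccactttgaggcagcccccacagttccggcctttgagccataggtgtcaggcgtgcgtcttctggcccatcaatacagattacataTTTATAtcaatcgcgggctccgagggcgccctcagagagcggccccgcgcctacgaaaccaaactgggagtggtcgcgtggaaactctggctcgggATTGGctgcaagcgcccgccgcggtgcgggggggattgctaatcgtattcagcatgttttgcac
HOXA10, start at 52240854, chr6:52240855-52241104, minus strand: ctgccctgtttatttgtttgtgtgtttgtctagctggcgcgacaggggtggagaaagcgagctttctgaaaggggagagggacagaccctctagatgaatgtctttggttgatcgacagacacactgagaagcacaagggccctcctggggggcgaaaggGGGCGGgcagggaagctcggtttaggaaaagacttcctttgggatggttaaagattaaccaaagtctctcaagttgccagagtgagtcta
HOXA13, chr6:52260881-52261130, minus strand: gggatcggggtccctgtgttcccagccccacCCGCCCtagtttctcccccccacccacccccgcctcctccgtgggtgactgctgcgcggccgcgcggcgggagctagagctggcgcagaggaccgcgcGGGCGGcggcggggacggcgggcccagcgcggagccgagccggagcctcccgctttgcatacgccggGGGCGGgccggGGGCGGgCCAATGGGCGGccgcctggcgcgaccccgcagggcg
HOXD8, chr2:74704365-74704614, plus strand: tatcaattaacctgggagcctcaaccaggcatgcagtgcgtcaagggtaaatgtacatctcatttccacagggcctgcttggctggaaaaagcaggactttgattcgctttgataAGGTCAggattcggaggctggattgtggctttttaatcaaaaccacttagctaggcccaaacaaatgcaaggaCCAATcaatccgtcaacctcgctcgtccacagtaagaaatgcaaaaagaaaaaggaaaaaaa

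CpG pairs numbered 28 before HOXA5, 20 and 7 before the 2 starts of HOXA10, 35 before HOXA13 and 6 before HOXD8. The HOXA13 window held 5 GC boxes, 1 of which follows its CCAAT box directly, and no base lay in matches of 2 motifs. RefSeq gave 24 windows for 22 of the 39 genes. Their median CpG count was 12.5 (range 2 to 35), against 6 over all 32851 windows. A CCAAT box was in 14 of the 24 HOX windows and in 33.8% of all windows, a GC box in 10 and 32.7%, an AGGTCA in 6 and 14%, a TATAAA in 4 and 12.4%, and the PBX-HOX site in 2 and 2.82%. The 10 windows of genes without overlap that were higher in PSCN had a median of 10.5 CpG pairs, and the other 14 had a median of 12.5.

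Total counts were 69563622 to 72807077 per library. Levels are counts scaled to a common library size (CPM, after TMM scaling), and 3 counts summed over the PSC group, or 0.0134 CPM, served as the floor for fold changes against groups without counts; floors and counting intervals cover counting error only. NSD3 itself was at 821, 918 and 1932 CPM in PSCN libraries 1, 2 and 3, against 79.7, 96.7 and 102 CPM in PSC libraries 1, 2 and 3, higher in every PSCN library as labelled, although counts per gene do not show the mutation itself. Of the 6 libraries, 2 stood apart. PSC library 3 correlated on average at 0.941 with the PSCN libraries and at 0.908 with the other PSC libraries. PSCN library 1 held bone and fibroblast transcripts: 8 bone markers summed to 3670, 263 and 226 CPM in PSCN libraries 1, 2 and 3, against 103, 215 and 175 CPM in the PSC libraries. XIST marked PSC libraries 2 and 3 as female (1088 and 1034 CPM), while the other 4 libraries had at most 2.40 CPM. DDX3Y was at 62.9 CPM in PSC library 1 and at most 0.106 CPM in PSC libraries 2 and 3. The PSC libraries were thus not all from the same mouse.

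Within the family, the groups were furthest apart at the high positions and in clusters C and D. Of the 39 genes, 6 had no count in any library (HOXA11, HOXB1, HOXC11, HOXC12, HOXD1 and HOXD12). Of the 33 with counts, 29 had a higher mean in PSCN and 4 a lower one. Every PSCN library was higher than every PSC library for 12 genes (among them HOXA9, HOXA10, HOXA13, HOXC4, HOXC5, HOXC6, HOXC13, HOXD8, HOXD9, HOXD10 and HOXD11) and lower than every PSC library for 0 genes. Over the whole table, 12.1% of the 32200 genes with a count lay above without overlap and 10.6% below. Library by library, 33, 25 and 24 HOX genes had at least 10 counts in PSCN libraries 1, 2 and 3, against 15, 16 and 17 in PSC libraries 1, 2 and 3.

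**Figure D1:**
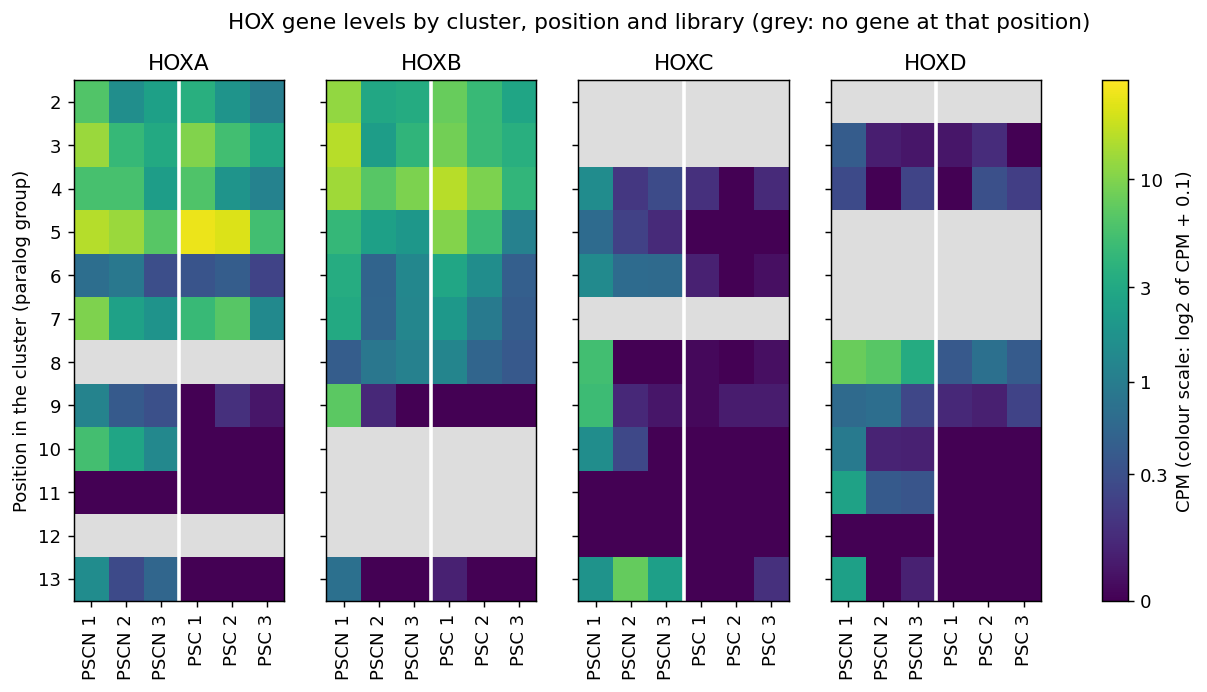
Levels of HOX genes at positions 2 to 13 as CPM on a log2 colour scale with a pseudocount of 0.1, with clusters in panels, positions running down the vertical axis and libraries, PSCN left of PSC, along the horizontal axis. Low positions of clusters A and B were filled in all 6 libraries, while positions 9 to 13 and clusters C and D were filled mainly in PSCN library 1, with fewer genes in PSCN libraries 2 and 3 and fewest in PSC.

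Summed over clusters, positions 9 to 13 reached 30.5, 12.7 and 5.39 CPM in PSCN libraries 1, 2 and 3, against 0.175, 0.238 and 0.436 CPM in PSC libraries 1, 2 and 3. The lowest PSCN library was thus above the highest PSC library, with means of 16.2 ± 12.9 CPM in PSCN and 0.283 ± 0.136 CPM in PSC (SD, n = 3 each). They made up 19.7%, 18.3% and 10.2% of all HOX CPM in the PSCN libraries, against 0.174%, 0.358% and 1.66% in the PSC libraries. Without PSCN library 1, which held the bone transcripts, the PSCN mean was 9.04 CPM. XIST was low in all PSCN libraries (at most 2.40 CPM) and high in PSC libraries 2 and 3, so sex and group cannot be fully told apart. PSC library 1, with XIST at 1.73 CPM, had a sum of 0.175 CPM, but it is 1 library. The part of sex in these sums was not tested.

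At low and middle positions the groups overlapped. Positions 1 to 4 summed to 71.7, 29.0 and 29.0 CPM in PSCN libraries 1, 2 and 3, against 53.9, 28.5 and 16.1 CPM in PSC libraries 1, 2 and 3. Positions 5 to 8 summed to 52.9, 27.8 and 18.4 CPM in PSCN and to 47.0, 37.6 and 9.75 CPM in PSC. The means were 43.2 ± 24.7 and 33.0 ± 17.8 CPM in PSCN, against 32.8 ± 19.2 and 31.5 ± 19.4 CPM in PSC, each difference being smaller than the spread within either group. PSC library 3 was the lowest of its group for 14 of the 15 HOX genes that had 10 or more counts in every PSC library. For 14 of those 15 genes, all 3 PSCN libraries lay above it.

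**Figure D2:**
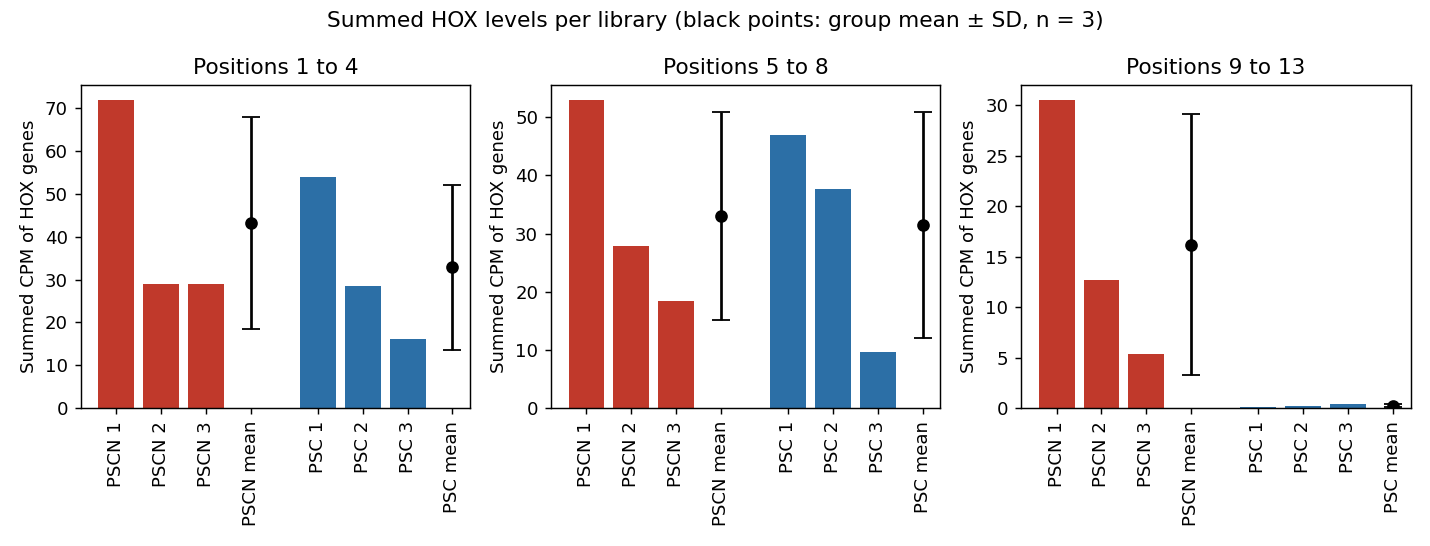
Summed CPM of HOX genes at positions 1 to 4, 5 to 8 and 9 to 13, with a bar for each library and black points for the mean ± SD of PSCN and of PSC (n = 3 each). The groups overlap in the first 2 panels, and at positions 9 to 13 the lowest PSCN library (5.39 CPM) is above the highest PSC library (0.436 CPM).

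Clusters C and D were low in PSC. Cluster C summed to 17.0, 9.02 and 3.43 CPM in PSCN libraries 1, 2 and 3, against 0.216, 0.0528 and 0.327 CPM in PSC libraries 1, 2 and 3. Cluster D summed to 15.3, 7.90 and 4.21 CPM in PSCN, against 0.526, 1.19 and 0.817 CPM in PSC. Neither cluster overlapped between the groups, and PSCN library 1 was the highest in both. Cluster A summed to 40.5 ± 20.4 CPM in PSCN and 33.9 ± 19.7 CPM in PSC, and cluster B to 33.0 ± 23.6 CPM in PSCN and 29.7 ± 18.5 CPM in PSC (SD, n = 3 each), with overlap in both.

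Ranked by mean level per kilobase of exon, HOXA5 came first in both groups and HOXB4 after it, with spreads that overlapped. In PSCN library 3, HOXB4 was above HOXA5 (3.75 against 3.59 CPM per kb). HOXA5 averaged 6.24 ± 2.46 CPM per kb in PSCN and 9.32 ± 5.70 in PSC, and HOXB4 averaged 3.84 ± 1.26 CPM per kb in PSCN and 3.90 ± 2.35 in PSC (SD, n = 3 each). The next PSCN ranks were held by HOXA4 (2.80 CPM per kb) and HOXD8 (2.19), whose spreads overlapped. In PSC they were held by HOXB5 (1.95 CPM per kb), HOXA4 (1.91) and HOXA7 (1.47), also within their spread. HOXD8 ranked 4 in PSCN and 15 in PSC, and HOXC13 ranked 10 in PSCN and 19 in PSC.

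HOXA2 to HOXA7 and HOXB2 to HOXB8, the range used by lung, had counts in every library. HOXA5 (chr6:52201754-52204587), which in mice is needed for development of the lung and trachea, had 15.9, 12.5 and 6.74 CPM in PSCN libraries 1, 2 and 3, against 25.2, 22.0 and 5.27 CPM in PSC libraries 1, 2 and 3. Both groups spanned a wide range and overlapped, and the log2 fold change of PSCN over PSC was -0.58 (SE 0.62). HOXB5, a gene of airway branching in mouse, had 4.33, 2.44 and 1.93 CPM in PSCN, against 10.4, 4.79 and 1.12 CPM in PSC. It had the most negative log2 fold change of the family (-0.91, SE 0.79), again with overlap, since PSC library 3 was the lowest of all 6. HOXB4, known for expansion of blood stem cells, had 13.2, 6.74 and 9.61 CPM in PSCN and 16.2, 9.58 and 4.18 CPM in PSC (log2 fold change -0.02, SE 0.53). These genes were low in the same PSC library in which 10 lung mesenchyme markers were low: their sum was 225, 172 and 146 CPM in the PSCN libraries, against 502, 338 and 99.1 CPM in the PSC libraries. All 10 of those markers had negative log2 fold changes (median -0.97), and their part in the HOX levels was not tested.

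HOXA3, which acts in the pharyngeal arches and thymus, had 12.6, 4.45 and 3.07 CPM in PSCN, against 10.01, 5.19 and 2.97 CPM in PSC (log2 fold change 0.14, SE 0.68). HOXA7, a gene of trunk patterning, had 9.76, 2.53 and 1.76 CPM in PSCN, against 4.55, 6.70 and 1.40 CPM in PSC (0.15, SE 0.84). Each group ran over a several-fold range, with library 3 the lowest in each. HOXB2, a gene of the hindbrain and its facial nerve, had 11.8, 2.94 and 3.21 CPM in PSCN, against 7.91, 4.58 and 2.74 CPM in PSC (0.24, SE 0.69). HOXB3 had 16.1, 2.30 and 4.07 CPM in PSCN, against 8.84, 4.72 and 3.55 CPM in PSC (0.39, SE 0.78). HOXB7 had 3.11, 0.541 and 1.27 CPM in PSCN, against 1.97, 0.9503 and 0.422 CPM in PSC (0.56, SE 0.81). For these 3 genes PSCN library 1 was the highest of all 6 and PSCN library 2 was below some or all of the PSC libraries. Without PSCN library 1 the values of HOXB2 and HOXB3 were -0.71 and -0.83. Antisense exons cover 52.9% of HOXB3, 27.3% of HOXB2, 25.4% of HOXA3 and 20.4% of HOXA7, and whether the counting used strand is not stated, so reads of these genes and of their antisense partners cannot be told apart.

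HOXA2, HOXA4, HOXA6, HOXB6 and HOXB8 also overlapped between the groups. HOXA2, HOXA4 and HOXA6 had log2 fold changes of 0.67, 0.55 and 0.90, with levels of 0.293 to 6.21 CPM in PSCN and 0.218 to 6.18 CPM in PSC. HOXB6 and HOXB8 were at 0.10 and 0.17, with levels of 0.437 to 3.31 CPM in PSCN and 0.395 to 2.81 CPM in PSC. The lengths of these genes differ, so the ranges do not rank them.

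The posterior genes of cluster A were nearly silent in PSC. HOXA10 (chr6:52231197-52240854), a regulator of the uterus, the lumbar spine and blood progenitors, had 366, 177 and 96 counts in PSCN libraries 1, 2 and 3, against 0 in all 3 PSC libraries. Its PSCN mean was 3.14 ± 2.03 CPM (SD, n = 3), at least 233.5-fold higher than the floor (152-fold without PSCN library 1). HOXA13 (chr6:52257694-52260880), which patterns the digits and the genital tract, had 104, 17 and 40 counts in PSCN, against 0 in every PSC library, at least 58.0-fold higher (30.5-fold without PSCN library 1). Both genes were present in every PSCN library and were highest in library 1. HOXA9, a gene of blood progenitors and of acute leukaemia, had 1.20, 0.402 and 0.307 CPM in PSCN, against 0, 0.119 and 0.0409 CPM in PSC, with no overlap (log2 fold change 3.53, SE 1.12). No exon of another gene overlaps HOXA10 or HOXA13. HOXA11, which lies between them, had no count in any library.

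Counts of 0 in every PSC library together with 10 or more in every PSCN library were found in 7 of 32200 genes with a count (0.0217%), and 3 of those 7 were HOX genes (HOXA10, HOXA13 and HOXD11). The reverse pattern held for 31 genes (0.0963%), of which 0 were HOX genes. HOXC5 and HOXD10, with 0.0977 to 0.627 CPM and 0.0698 to 0.933 CPM in PSCN, HOXC10, with 0 to 1.55 CPM, and HOXB9 and HOXD13 were also at 0 in every PSC library but had under 10 counts in at least 1 PSCN library. With any PSCN count at all, the pattern covers 4.71% of genes with a count, and its reverse 9.01%.

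HOXD8 (chr2:74704615-74707933), a gene of trunk axial patterning, had 8.11, 6.68 and 3.22 CPM in PSCN, against 0.391, 0.713 and 0.409 CPM in PSC. All 3 PSCN libraries were more than 4 times any PSC library, with means of 6.002 ± 2.51 CPM in PSCN and 0.504 ± 0.181 CPM in PSC (SD, n = 3 each) and a log2 fold change of 3.57 (SE 0.50), the smallest SE of the tested HOX genes. HOXD11, which with HOXA11 shapes the forearm and kidney, had 176, 26 and 25 counts in PSCN, against 0 in every PSC library, at least 82.3-fold higher (27.9-fold without PSCN library 1). It was highest in PSCN library 1 by several-fold, and 10.8% of its exon bases lie in exons of a predicted gene on the same strand. HOXD9, a gene of axial and limb patterning, had 0.612, 0.680 and 0.237 CPM in PSCN, against 0.0945, 0.066 and 0.218 CPM in PSC (log2 fold change 2.001, SE 0.65). The groups did not overlap, but PSCN library 3 was only just above PSC library 3. HOXD3 had at most 0.423 CPM in PSCN and 0.106 CPM in PSC, and HOXB13 had counts in PSCN library 1 (0.715 CPM) and PSC library 1 (0.0675 CPM) only. HOXD4 was low in both groups (log2 fold change -0.02, SE 1.47), and 52.3% of its exon bases are shared with HOXD3 or a predicted gene on the same strand.

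In cluster C, HOXC13 had the highest mean CPM in PSCN, although HOXC8 and HOXC9 were above it in PSCN library 1. HOXC13 (chr15:102921103-102928814), which drives hair and nail keratins, had 1.78, 7.70 and 2.41 CPM in PSCN, against 0, 0 and 0.123 CPM in PSC, without overlap. Its log2 fold change was 6.55 (SE 1.56), and it was one of 4 HOX genes that were highest in PSCN library 2. Hair keratin and hair follicle genes, 4 of 15 of which had no count anywhere, summed to 24.5, 44.2 and 11.5 CPM in PSCN, against 13.6, 11.1 and 21.2 CPM in PSC, so they were highest in that library too but overlapped between the groups. HOXC6, a gene of the thoracic trunk, had 1.44, 0.634 and 0.614 CPM in PSCN, against 0.0675, 0 and 0.0272 CPM in PSC (log2 fold change 4.76, SE 0.98). HOXC4, used in lymphocytes and skin, had 1.49, 0.155 and 0.265 CPM in PSCN, against 0.121, 0 and 0.0953 CPM in PSC (log2 fold change 3.11, SE 1.31). Neither overlapped, with PSCN library 2 close to PSC library 1 for HOXC4. Squamous markers were also higher in PSCN: 9 of 9 had positive log2 fold changes, and their sum was 11655, 24946 and 8119 CPM in PSCN, against 139, 1565 and 5794 CPM in PSC. Within the groups this sum was highest in PSCN library 2 and PSC library 3, as was HOXC13. HOXC4 and HOXC6 were instead highest in library 1 of each group. The part of squamous markers in the levels of these HOX genes was not tested.

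Another group of genes was found in 1 library. HOXC8, a gene of the thoracic trunk, had 357, 0 and 0 counts in PSCN, against 1, 0 and 2 in PSC, a ratio of 129.6 (95% counting interval 44.0 to 631.6). HOXC9, its neighbour, had 4.88, 0.0927 and 0.0419 CPM in PSCN, against 0.0135, 0.0528 and 0.0545 CPM in PSC, with overlap. HOXB9 had 477, 6 and 0 counts in PSCN, against 0 in every PSC library. HOXD13, which patterns the digits, had 167, 0 and 5 counts in PSCN, against 0 in every PSC library. All 4 had nearly all their counts in PSCN library 1, and outside it none exceeded 0.0927 CPM. The bone markers IBSP (2035, 0.819 and 0.405 CPM in PSCN, against 0.540, 0.422 and 0.123 CPM in PSC) and SP7 (96.7, 0.108 and 0 CPM in PSCN, against 0.0405, 0 and 0.0817 CPM in PSC) were high in the same library. None of the 8 bone markers had 0 counts everywhere, 10 fibroblast markers summed to 43073 CPM there and to between 1298 and 4223 CPM in the other 5 libraries, and their part in these HOX levels was not tested. Of the 33 HOX genes with counts, 28 were highest in PSCN library 1 among the PSCN libraries, 4 in library 2 and 1 in library 3.

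**Figure D3:**
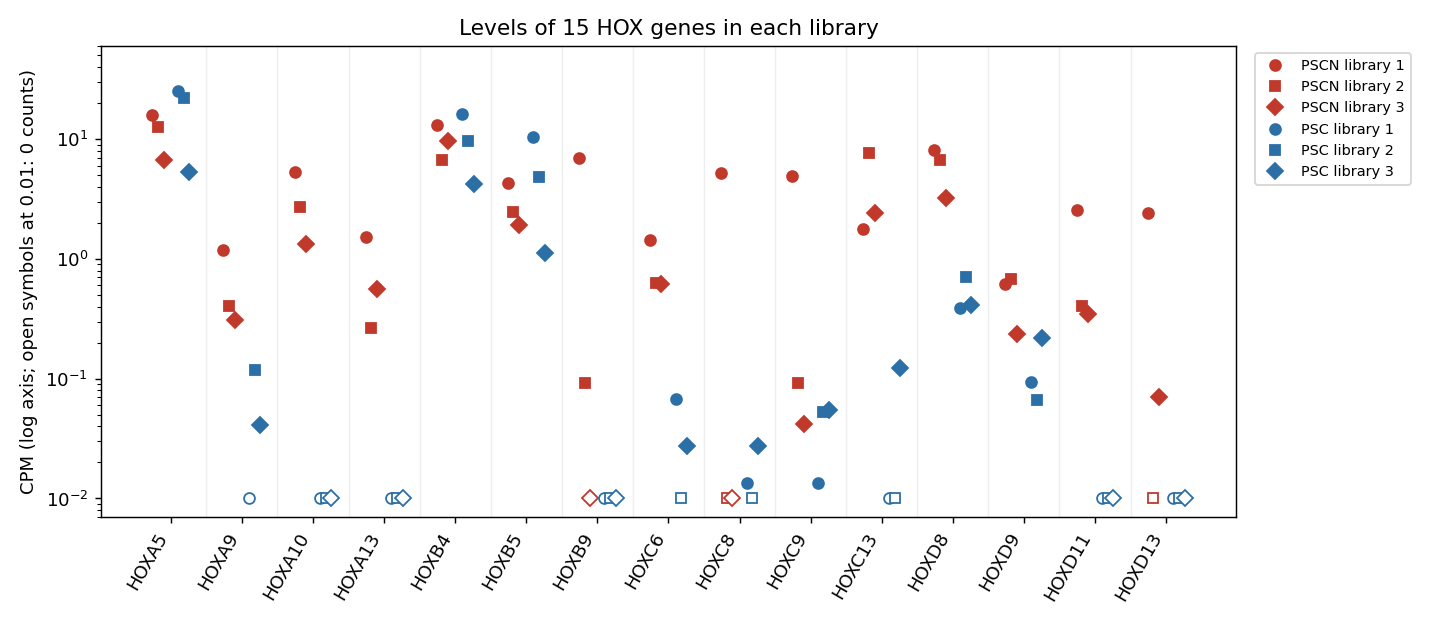
CPM of 15 HOX genes in each library on a log axis, with PSCN in red to the left of PSC in blue and open symbols at 0.01 for libraries with 0 counts. HOXA10, HOXA13, HOXD8 and HOXD11 are separated in every library, HOXA5, HOXB4 and HOXB5 overlap, and HOXC8 is high in PSCN library 1 only.

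A filter on low counts kept 24 of the 39 HOX genes, of which 20 had positive and 4 negative log2 fold changes (HOXA5, HOXB4, HOXB5 and HOXD4), with a median of 0.61. All 21201 genes kept had 10412 positive and 10789 negative values and a median of -0.01. Of the 24, 9 had under 10 counts in at least 1 PSC library and some passed only through their PSCN counts, so the balance is no support for a shift of the family. The 15 with 10 or more counts in every PSC library had 12 positive and 3 negative values and a median of 0.24. The medians were 0.39 for positions 1 to 4 (9 tested), 0.17 for positions 5 to 8 (9 tested) and, with genes at 0 in PSC set to their bound, 6.11 for positions 9 to 13 (6 tested of 16). All 6 at positions 9 to 13 had under 10 counts in at least 1 PSC library. The filter thus favoured genes high in PSCN there, and that median is no support for a shift.

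In edgeR's quasi-likelihood fit over the whole table, 0 HOX genes had a Benjamini-Hochberg adjusted p under 0.05, and the lowest was 0.137 for HOXD8. That fit called 1 gene of 21201 (0.00472%). At an unadjusted p under 0.05 there were 9 HOX genes higher and 0 lower, among 2010 higher and 2579 lower in the table. DESeq2 called 8 HOX genes higher (among them HOXA9, HOXA10, HOXA13, HOXC6, HOXC13, HOXD8 and HOXD11) and 0 lower, against a background of 5.31% of genes higher and 8.65% lower. limma-voom with quality weights called the same genes other than HOXA9, and 0 lower, against 8.43% higher and 5.84% lower. Without PSC library 3, edgeR called 4 (among them HOXA10, HOXC13 and HOXD8) higher and 0 lower, against 3.39% higher and 5.4% lower. In the authors' deposited table, 11 of the 29 HOX genes with an adjusted p were under 0.05 and higher in PSCN and 0 lower, against 3.92% higher and 8.1% lower of all genes with an adjusted p. That table, as deposited by the authors, gives no p for HOXB9, HOXC8, HOXC9 and HOXD13.

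**Figure D4:**
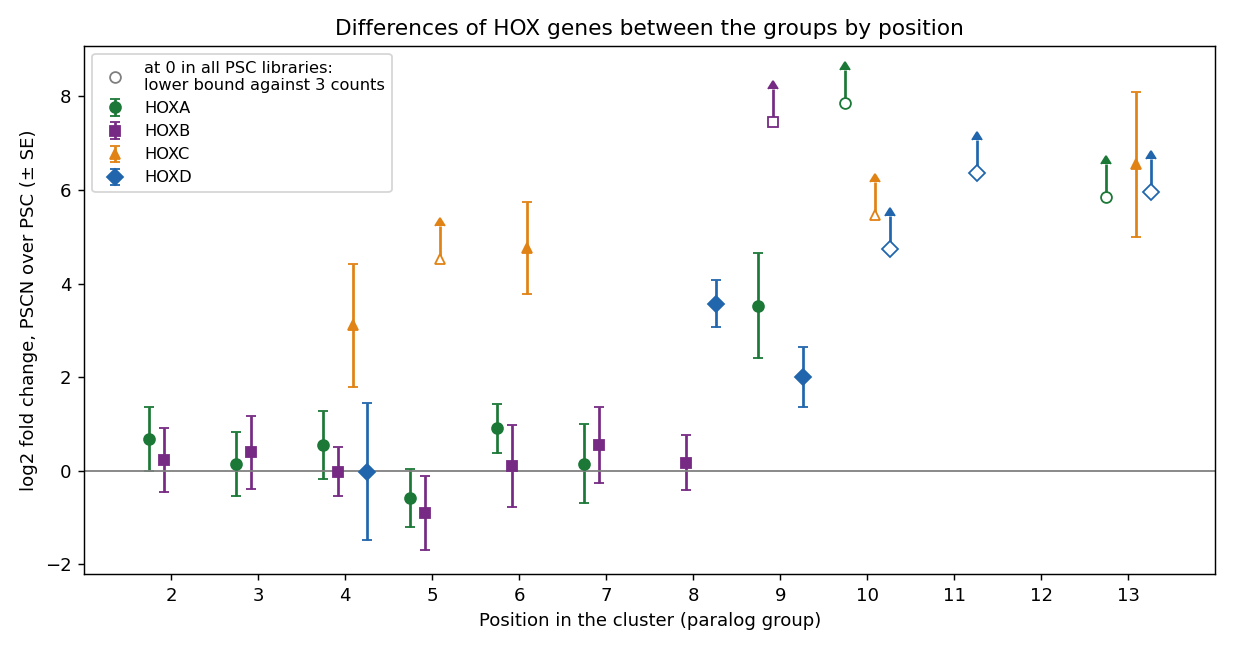
Log2 fold change of PSCN over PSC (± SE) of the tested HOX genes with PSC counts at positions 2 to 13, by position and cluster, with open symbols and arrows for lower bounds of the 8 genes at 0 in every PSC library. Values of clusters A and B lie between -0.91 and 0.90 from positions 2 to 8, while clusters C and D outside HOXD4, and positions 9 to 13 lie above it.

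Protein-coding neighbours within 500000 bases had median log2 fold changes of -0.11 at cluster A (4 tested), 0.05 at cluster B (14 tested), -0.06 at cluster C (19 tested) and -0.05 at cluster D (3 tested), with 0 called at each. Without overlap, and counting untested genes too, 1, 3, 5 and 0 neighbours of clusters A, B, C and D were higher in PSCN and 0, 1, 3 and 0 were lower. EVX1 and EVX2, the homeobox genes just past the posterior ends of clusters A and D, had no count in any library. Noncoding genes inside cluster A had positive values in 6 of 6 tested (median 1.17). By CPM, 5 of all 18 were higher in PSCN without overlap, against 12.1% of all genes with a count. Among these 5, GM27868 had 1 count in every library and GM27867 had 1 or 2, so only library scaling set them apart. The others were HOTAIRM1, GM27477 and GM15050, the last at 2.65, 1.004 and 1.49 CPM in PSCN, against 0.526, 0.356 and 0.395 CPM in PSC. Inside cluster B, 1 of 3 was positive and 2 were negative (median -0.09), inside cluster D the 1 tested gene was at 2.15, and inside cluster C all 7 had no count anywhere.

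Genes that act with or on HOX genes were counted in lists made with earlier results known, and edgeR called 0 genes in each. The TALE homeodomain proteins bind DNA together with HOX proteins: 5 of 9 had positive and 4 negative values (median 0.04). PKNOX2 had 5.70, 5.96 and 6.54 CPM in PSCN, against 23.6, 14.3 and 10.5 CPM in PSC (-1.41, SE 0.34). MEIS2 had 49.2, 26.1 and 39.8 CPM in PSCN, against 11.9, 13.2 and 22.8 CPM in PSC (1.26, SE 0.35). Neither overlapped between the groups, with MEIS2 higher and PKNOX2 lower in PSCN. Of 8 caudal, even-skipped and ParaHox genes, the upstream and sister homeobox genes, 7 had no count in any library and 0 were tested.

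Retinoic acid turns on HOX genes of low position in the embryo. Of 16 tested genes of its synthesis, receptors and breakdown, 8 were positive and 8 negative (median -0.15). RARB, a receptor that is itself a target of retinoic acid, had 2.26, 1.27 and 1.97 CPM in PSCN, against 25.6, 11.6 and 4.48 CPM in PSC (log2 fold change -2.92, SE 0.68), without overlap and lower in PSCN. Of 31 chromatin regulators of HOX genes, NSD3 included, 19 were positive and 12 negative (median 0.08). KMT2A, a methyltransferase of histone H3 lysine 4 that maintains HOX expression, had 97.5, 109 and 88.2 CPM in PSCN, against 169, 159 and 155 CPM in PSC (-0.71, SE 0.14). Its groups did not overlap, and it was lower in PSCN.

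Other cell type markers were set beside the HOX genes, and their part in the HOX levels was not tested. Median log2 fold changes of all tested markers were -3.91 for ciliated cells, -3.92 for club cells, -1.44 for alveolar type 2 cells, -0.54 for alveolar type 1 cells, -0.63 for endothelium, -2.90 for smooth muscle, -3.83 for mast cells, -3.26 for B cells, -1.07 for T cells, -0.12 for macrophages, -1.86 for neuroendocrine cells, -0.89 for mesothelium and -0.61 for skeletal muscle. They were 1.51 both for fibroblast genes and for hair keratin and hair follicle genes, 2.34 for squamous and 3.09 for bone. Of the 6 hair genes tested, 4 were positive and 2 negative, and MSX2, FOXN1 and LEF1 among them are not keratins. Summed levels of club, mast cell, B cell, mesothelium, squamous and bone markers did not overlap between the groups. Those of the other lists given here did, so their medians do not show that the groups were apart. The bone median does not show it either. Taken singly, 0 of the 8 bone markers were without overlap. Their sums were 263 and 226 CPM in PSCN libraries 2 and 3, against up to 215 CPM in PSC. Endothelial markers summed to 900, 727 and 503 CPM in PSCN, against 1930, 1134 and 349 CPM in PSC, and ciliated markers to 29.7, 13.7 and 48.7 CPM in PSCN, against 769, 324 and 28.4 CPM in PSC. Like the HOX genes of low position, both sums were lowest within PSC in library 3.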

How the data were processed

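RNA of mouse tumour biopsies, 3 libraries labelled PSCN and 3 labelled PSC, was sequenced from stranded total RNA libraries with reads of 76 nt, per the labels' protocols. Read trimming with Trimmomatic, the tools HISAT2, StringTie and DESeq2, and the genome GRCm38 appear in the submitters' processing notes, with no versions. Per gene symbol, the authors deposited estimated counts that are whole numbers, which were read as counts although the planned test named plain counts. The authors also deposited a mean normalized signal, log2 fold changes of PSCN over PSC, a Wald score and p-values. Columns were matched to labels by letter and number, a match that the labels do not spell out.

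Counts were scaled by TMM, filtered with filterByExpr to 21201 genes and fitted with edgeR 4.0.16 (quasi-likelihood, all 6 libraries, no covariate, Benjamini-Hochberg adjustment over the table, threshold 0.05; R 4.3.3). SE is the log2 fold change divided by the root of the F statistic. limma 3.58.1 (voom) and DESeq2 1.42.0 were alternatives, with other scalings and filters, each library left out, a replicate block, PSC library 3 alone and sex as a term. The fit was tested on simulated data. Gene positions are from GENCODE M21 (GRCm38) and windows from RefSeq (GRCm38.p6). Members given in every library are, in each cluster, the 3 with the highest mean CPM and, among those past the filter, the 3 with the largest absolute log2 fold change. Up to 4 genes with the smallest unadjusted p were named in the other lists, and any further gene was chosen after their values were seen. The members and lists were chosen with earlier results of these data known. Single values of some genes are not reported here, although counts and sums include them.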

Additional observations from a re-analysis of the deposited data

How the results depend on the processing

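Depth limits the genes of high position, where PSC libraries had a few counts or 0, so that fitted fold changes there depend on the prior count. Over the whole table, the counts of genes called higher and lower were 1 and 0. They were 1126 and 1834 with DESeq2 and 1788 and 1238 with quality weights. Higher calls were 3 with the filter of 1 CPM, 0 when PSC library 3 alone stood for PSC, with voom without weights, with the replicate block and with the sex term, and 0 to 751 with 1 library left out (lower 0 to 1195, both maxima without PSC library 3). HOX calls were 0 higher. They were 8 with DESeq2, 7 with quality weights, and 0 to 4 with 1 library left out, the 4 without PSC library 3 (among them HOXA10, HOXC13 and HOXD8).

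Of the HOX genes tested, 20 of 24 were positive and 4 negative. Positive counts were 12 of 15 with the 1 CPM filter, 32 of 33 with PSC library 3 alone, 13 of 24 with the sex term, and 12 (of 23, without PSCN library 1) to 23 (of 26) with 1 library left out. Negative counts were 1 with PSC library 3 alone, 9 with quality weights, 2 with voom, 2 with the replicate block, 11 with the sex term, and 2 to 11 with 1 library left out, highest without PSCN library 1. With PSC library 3 alone, medians were 1.83 (cluster A), 1.35 (B), 6.62 (D), 1.45 (positions 1 to 4) and 1.86 (5 to 8), HOXA5, HOXB4, HOXB5, HOXA3 and HOXA7 were positive, 25 genes were higher without overlap (21.8% of all genes with a count), and PSC sums were 12.3 CPM for cluster A, 9.75 for positions 5 to 8 and 0.436 for positions 9 to 13. The cluster C median was 6.53 with the 1 CPM filter and with no filter, 5.95 with quality weights and 3.70 with the sex term, which gave 5.24 for cluster D. The fitted median of positions 9 to 13 was 7.67, and was 8.66 with the 1 CPM filter, 6.49 with quality weights, 6.64 with voom and 9.05 with the sex term. The cause of these moves was not tested.

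With 1 library left out, medians were -0.71 to 0.78 for cluster B, 4.91 to 7.47 for C, -0.40 to 0.85 for positions 1 to 4, -0.29 to 0.85 for 5 to 8 and 7.34 to 8.97 for 9 to 13. Sums of positions 9 to 13 were 9.04 to 21.6 CPM in PSCN and 0.207 to 0.337 CPM in PSC, and 12 to 16 genes lay higher and 0 to 2 lower without overlap, against 13.6% to 21.1% of all genes higher and 13% to 23.2% lower. Replicate numbers did not pair the libraries (correlations 0.186, -0.053 and 0.016), so the replicate block only shares a number.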
